A study of Mus musculus with 19 samples.

Results

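Chromatin modifiers and remodelers are the enzymes that add, remove or read chemical marks on histones and DNA, and the motors that slide or evict nucleosomes. The set holds every protein-coding gene of the expression table whose symbol starts with Hdac, Kdm, Kmt2, Kmt5, Kat, Dnmt, Chd, Smarc or Brd followed by a member number or letter, or is Sirt1 to Sirt7, Tet1 to Tet3, Ezh1 or Ezh2. This gave 73 of 12629 genes. They were 13 Smarc genes, 13 histone demethylases, 11 histone deacetylases, 9 Chd genes, 7 sirtuins, 7 bromodomain readers, 6 histone acetyltransferases, 5 histone methyltransferases and 2 genes of DNA methylation. A pseudogene, Smarce1-ps1, matched the symbols and was left out for not being protein coding, whereas Chd3os, a small gene beside Chd3, stayed in by the same rule.

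The libraries came from adult dorsal root ganglion (DRG) neurons sorted for GFP 8 weeks after adeno-associated virus (AAV5) injection into left cervical DRGs, given together with a crush of the dorsal roots or with none. GFP-naive (5 libraries) and GFP-crush (4) received AAV5-fGFP, driven by the CMV promoter. In α9k1-naive (6) and α9k1-crush (4), AAV5-α9-V5 (CAG promoter) and AAV5-kindlin1-GFP (CMV promoter) carried α9 integrin, a receptor for the matrix protein tenascin-C, and kindlin-1, an activator of integrins. All 4 groups were thus injected and sorted, and the sort for GFP follows kindlin-1 in the α9k1 groups, so that cells with kindlin-1 and no α9 may be among them. The sample labels name C57BL/6 mice and papain, whereas the paper's methods name male Lewis rats and trypsin, and reads were aligned to the mouse genome in either case. The comparisons ask what the forced integrin changed with and without crush, what crush changed with and without the integrin, and whether the α9k1 effect differed after crush (the interaction).

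Histone acetyltransferases open chromatin, deacetylases and sirtuins reverse them, and bromodomain proteins bind the acetylated tails. Methyltransferases and demethylases set marks that can accompany either active or silent genes, and the Chd and Smarc proteins use ATP to move nucleosomes. In DRG neurons this machinery is known for its part in the response to peripheral axotomy, where Hdac5 leaves the nucleus, Kat2b acetylates histones at injury genes and Tet enzymes act on DNA methylation.

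Depth ran from 36.4 to 87.6 M read pairs a library. Alignment took 47.5% to 54.1% of the reads, and mismatches with the mouse reference made up 3.87% to 4.05% of aligned bases. Of the 2 transgenes, Fermt1 followed the labels in every library. Fermt1, the gene of kindlin-1, lay between 0.42 and 0.80 in the GFP groups and between 5.18 and 7.73 in the α9k1 groups on the deposited log2 scale, and Itga9 lay between 0.90 and 2.40 and between 2.38 and 7.51. The highest GFP library, of GFP-naive, thus lay just above the lowest α9k1 library, of α9k1-naive, for Itga9. All 15 markers of sensory neurons and all 12 of satellite glia and Schwann cells were in the table. Of 11 markers of dividing cells 4 were analysed, of which Mcm2 rose in α9k1-naive (0.58) and the others were not called, while Mki67, Top2a and Aurkb were not analysed here. The text uses 2 quantities. A level is the deposited log2 value of a library, which the authors normalized for gene length and depth. A log2FC is a difference of 2 groups with 3 library-quality covariates held equal, from a limma fit to all 19 libraries, given with its SE (±). A gene was called at an adjusted p under 0.1 over all 12629 genes. In such bulk samples, fewer cells of a type and less RNA per cell cannot be told apart.

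The group that stood apart as a whole was GFP-crush. Its median over the 73 genes, taken in each library as the difference from the GFP-naive mean, lay between -0.33 and -0.25. The same medians lay between -0.07 and 0.10 in GFP-naive, between -0.17 and -0.04 in α9k1-naive and between -0.15 and 0.00 in α9k1-crush. The GFP-crush libraries overlapped no other group, while their medians over all 12629 genes, -0.07 to -0.05, lay within the range of the α9k1 groups. The α9k1-crush libraries, which had the same crush, lay with the uncrushed ones.

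**Figure D1:**
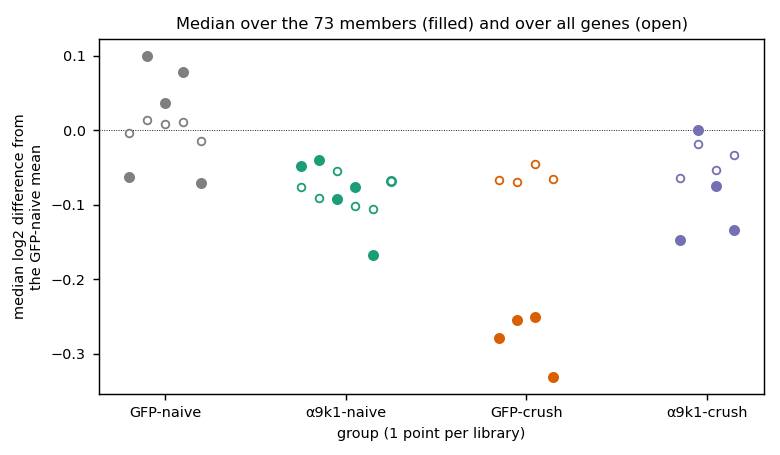
Median log2 difference from the GFP-naive mean in each of the 19 libraries (vertical axis), by group (horizontal axis), over the 73 chromatin genes (filled points) and over all 12629 genes (open points). The 4 filled GFP-crush points sit between -0.33 and -0.25, below every other filled point, and the open points of GFP-crush do not.

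In GFP-crush versus GFP-naive, 20 of the 73 genes fell and 1 rose. Over all genes tested, 15.7% fell and 7.39% rose, against 27.4% and 1.37% of the 73. Their median log2FC was -0.29 against -0.08 over all genes, and 55 of 73 were negative. The 20 were Hdac4, Hdac6 and Hdac7, Kdm4b, Kdm5a and Kdm6b, Kmt2c and Kmt2e, Kat6b, Brd2, Brd3 and Brd7, Chd2, Chd3, Chd4 and Chd9, Smarcc2 and Smarcd2, Dnmt3a and Tet2. Sirt5 rose. The 20 genes had long transcripts, with a median of 6979 bases against 4196 for the other 53 and 2894 for all genes with an annotated transcript. With each library's trend in GC content and length removed, 9 fell and 3 rose (9.59% and 9.65% of all genes), so that the split between lower and higher was less one-sided. Those 9 were Hdac4, Kdm5a, Kmt2e, Brd2, Brd3, Brd7, Chd4, Chd9 and Smarcd2. Chd2, Hdac6, Kdm4b and Smarcc2 were not called with quantile normalization or median centring. Without GFP-crush replicate 2, 13 fell (10.9% of all genes). Centring each library on its median shifted all genes from a median of -0.08 to 0.06 and the 73 from -0.29 to -0.15, and 16 of the 73 then fell and 2 rose (9.34% and 14.5% of all genes). A fit to the 9 libraries of these groups alone called 3 falls and 0 rises (5.24% and 2.07% of all genes), and of the 20 genes only Brd3 and Chd3 were called there. The levels of 15 of the 73 lay below GFP-naive with no overlap, against 12.2% of all genes, and those of 0 lay above, against 7.59%.

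In α9k1-naive versus GFP-naive, 14 of the 73 fell and 6 rose, close to the 17.6% and 11.4% of all genes. The median log2FC was -0.12 against -0.08 over all genes. Kdm6b, Smarca1, Ezh2, Hdac11, Hdac8 and Brd8 rose, and those that fell included Chd2, Chd4, Chd6, Smarcal1, Smarcc2, Hdac2, Hdac3, Hdac7, Hdac9, Sirt6, Kdm5b, Kmt2c and Kat2a. With the GC and length trend removed, 5 fell and 7 rose (14.3% and 13.4% of all genes), the falls being Chd6, Smarcal1, Smarcc2, Hdac2 and Kat2a. A fit to these groups alone called 12 falls and 3 rises, those of Kdm6b, Ezh2 and Hdac11 (14% and 9.45% of all genes). Leaving out GFP-naive replicate 2 or α9k1-naive replicate 6 left 8 falls (15.2% and 12.5% of all genes fell), and leaving out GFP-naive replicate 4 left 7 (13.5% of all genes). The levels of 3 of the 73 lay above GFP-naive and of 6 below it with no overlap, against 8.43% and 13.2% of all genes.

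In α9k1-crush versus α9k1-naive, Kmt5a rose and Kdm6b fell, and the other 71 genes were not called (4.47% and 5.27% of all genes rose and fell). Levels without overlap were found for 7 that were higher and 9 that were lower, against 17.4% and 16.1% of all genes. In α9k1-crush versus GFP-crush, limma called 0 of the 73, while 0.728% of all genes rose and 0.182% fell by the same adjusted p. An unadjusted p under 0.05 was found for 8 of the 73, and the matching share of all genes is not given here. Those 8 were Hdac6, Dnmt3a, Brd3, Smarce1, Kmt2e, Kmt5a, Kat7 and Brd2, all with a positive log2FC. The deposited levels of Hdac6, Dnmt3a, Kmt5a, Kat7 and Brd2 were also higher, without overlap. For Smarce1 and Brd3 the deposited group means differed by 0.05 and -0.09. Kmt2e lay at 5.44 to 5.76 in GFP-crush and at 5.45 to 5.78 in α9k1-crush. In the interaction limma called 0, while 1.35% of all genes were called higher and 0.847% lower. An unadjusted p under 0.05 was found there for 15 of the 73, again without the matching share of all genes. These 3 comparisons were the least precise. The variance of α9k1-crush versus GFP-crush was 3.11 times that of a single library with the covariates in the fit and 0.5 times without them, and 74.5% of the variance of the last covariate lay between the groups. Without covariates, 25 of the 73 rose and 6 fell in that comparison, against 29.6% and 28.3% of all genes. In α9k1-crush versus α9k1-naive, 14 then rose and 15 fell (28.5% and 27.1% of all genes), and in the interaction 20 were higher and 6 lower (23.3% and 16.1%).

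In the deposited levels, which are not corrected for the covariates, 22 of the 73 were higher in every α9k1-crush library than in every GFP-crush library, and 5 were lower (20% and 20.8% of all genes). The 22 were Chd2, Chd9, Dnmt3a, Smarca2, Smarca5, Smarcal1, Smarcd2, Brd2, Kat7, Hdac4, Hdac5, Hdac6, Hdac11, Kdm1a, Kdm2a, Kdm3a, Kdm4b, Kdm8, Ezh1, Kmt2c, Kmt5a and Sirt3. The 5 included Chd4, Tet2, Smarcb1 and Kat6b. At equal covariates the direction turned for 5 of the 22, Kdm8 (-0.29), Smarcal1 (-0.09), Kdm2a (-0.06), Kdm4b (-0.02) and Kdm3a (-0.01), and for 4 of the 5, among them Kat6b (0.47), Tet2 (0.42) and Chd4 (0.11), with none of these log2FC called.

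**Figure D2:**
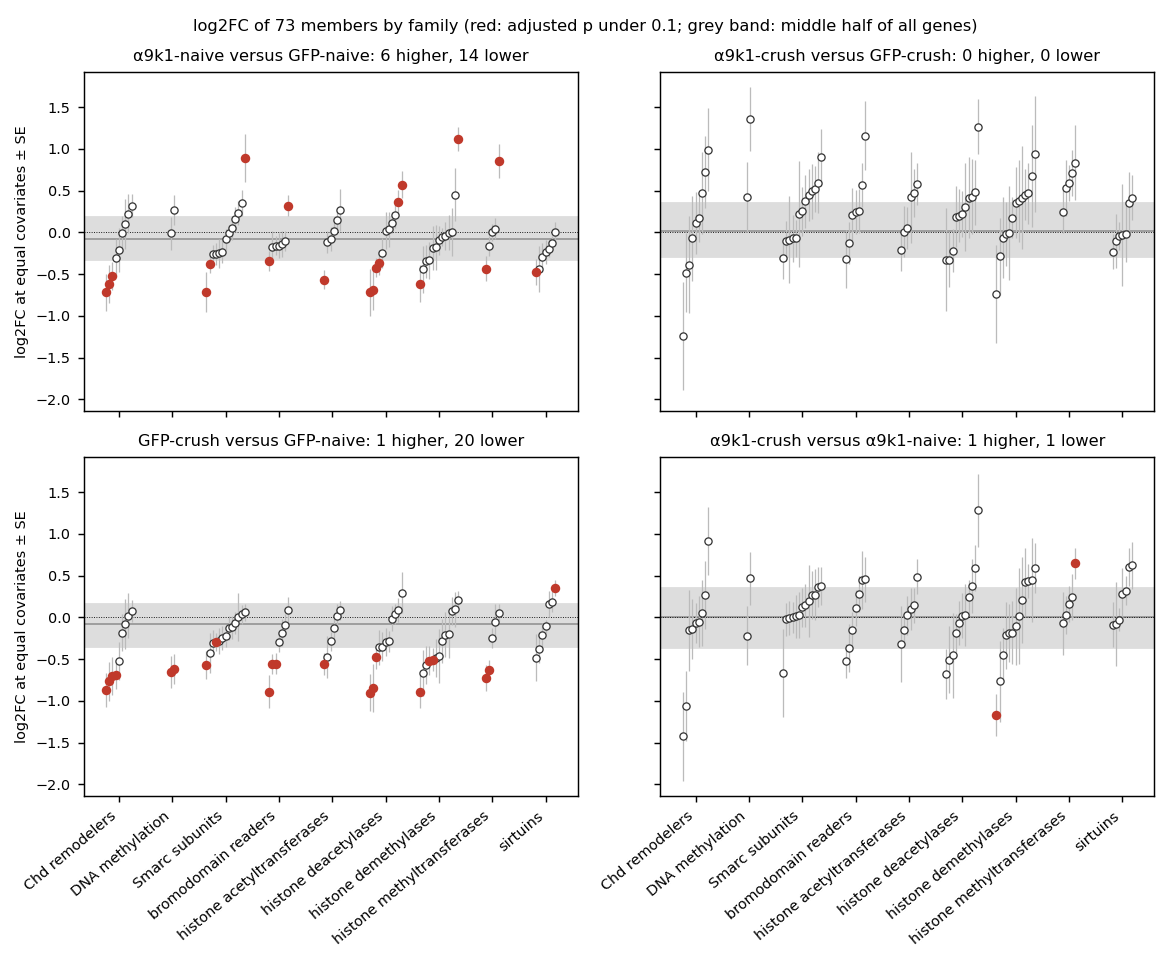
Difference between groups (log2FC at equal covariates, vertical axis, points, with the SE as bars) for the 73 genes by family (horizontal axis) in 4 comparisons. Red points passed an adjusted p under 0.1, the grey line and band are the median and the middle 50% of all genes, and 20 red points lie below 0 in GFP-crush versus GFP-naive.

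Among the methyltransferases, Ezh2, the catalytic subunit of Polycomb repressive complex 2 (PRC2), rose with α9k1 in naive DRGs. Its gene is at chr6:47530139-47595341 (GRCm38, minus strand). The levels were 3.24, 3.33, 3.65, 4.04 and 4.09 in GFP-naive. In α9k1-naive they ran from 4.29 over a median of 4.55 to 4.86, above every GFP-naive library. GFP-crush held 3.48, 3.62, 3.82 and 3.88, and α9k1-crush 3.58, 3.79, 3.93 and 4.21. GFP-crush thus lay inside the GFP-naive range, the highest α9k1-crush library lay above it, and both crushed groups lay below all α9k1-naive libraries. The log2FC was 0.86 ± 0.21 (SE, limma adjusted p = 0.00837) in α9k1-naive versus GFP-naive, called in each of 11 other settings and whichever library was left out. In GFP-crush versus GFP-naive it was -0.05 ± 0.21. In α9k1-crush versus GFP-crush it was 0.84 ± 0.45 and was not called (adjusted over all genes). Its paralog Ezh1, which can take its place in PRC2 of non-dividing cells, was not called in any comparison (-0.16 ± 0.12 in α9k1-naive and -0.25 ± 0.12 in GFP-crush).

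The sequences upstream of Ezh2 and of Hdac4, the genes with a rise in α9k1-naive and with the largest fall in GFP-crush, are shown because PRC2 and DNA methylation act on CpG-rich promoters. Each is the 250 bases before a transcript start, from RefSeq on GRCm38.p6, written along the minus strand of the genome from 5′ to 3′, with CG dinucleotides in capitals, for Ezh2 at chr6:47595031-47595280 and for Hdac4 at chr1:92180342-92180591. The RefSeq start used for Ezh2 lies inside the gene span given above, which is that of the deposited annotation, so these bases overlap the annotated gene. Both are mouse sequences, and would not be those of the animals if these were the rats of the paper's methods.
Ezh2: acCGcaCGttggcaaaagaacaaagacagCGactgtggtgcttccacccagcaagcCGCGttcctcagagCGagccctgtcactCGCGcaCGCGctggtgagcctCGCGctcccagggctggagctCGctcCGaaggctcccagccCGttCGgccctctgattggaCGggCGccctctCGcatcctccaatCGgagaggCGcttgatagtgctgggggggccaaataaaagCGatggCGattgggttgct
Hdac4: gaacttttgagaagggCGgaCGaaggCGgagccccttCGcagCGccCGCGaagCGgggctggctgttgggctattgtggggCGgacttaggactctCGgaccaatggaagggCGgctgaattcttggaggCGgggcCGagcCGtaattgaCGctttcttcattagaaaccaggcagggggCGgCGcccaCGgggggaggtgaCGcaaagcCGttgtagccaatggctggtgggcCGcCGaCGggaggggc
Either stretch holds 23 CG dinucleotides. In windows of 300 bases, from 250 before to 50 after the start, Ezh2 has 31 and Hdac4 32, against a median of 23 over the 83 windows of the 57 chromatin genes with a promoter in the table and 7 over all 32851 windows. Letters of the AP-1 motif (TGANTCA), the cAMP response element (TGACGTCA) and the E-box (CACGTG) were searched on both strands of these windows, and neither gene holds any of them. Among the 83 windows, 10.8% held TGANTCA, 0% TGACGTCA and 6.02% CACGTG, against 7.81%, 1.79% and 7.15% of all windows. The promoters of Kdm6b and Kdm5a are not shown.

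Kmt5a, which methylates histone H4, overlapped among 3 groups and was higher in α9k1-crush. Its levels were 4.80, 4.83, 4.95, 5.01 and 5.04 in GFP-naive, and 4.85 to 5.14 with a median of 5.01 in α9k1-naive. GFP-crush held 4.92, 4.95, 5.08 and 5.09. In α9k1-crush they were 5.26, 5.46, 5.56 and 5.58, above all 15 other libraries. The log2FC was 0.64 ± 0.18 (limma adjusted p = 0.0502) in α9k1-crush versus α9k1-naive, and the call was lost without α9k1-naive replicate 1 (0.54) or 4 (0.54) or in a fit to those groups alone (0.85). In α9k1-crush versus GFP-crush it was 0.59 ± 0.22, limma adjusted p = 0.402. Kmt2c and Kmt2e belong to the family of MLL proteins, which bind or methylate histone H3 at active genes. Kmt2c lay at 3.37, 3.63, 3.85, 3.87 and 3.91 in GFP-naive and at 2.79, 2.84, 3.03 and 3.23 in GFP-crush, with no overlap. It fell by 0.73 ± 0.15 on the log2 scale after crush (limma adjusted p = 0.00745), called whichever library was left out but not with the GC and length trend removed or in a fit to those groups alone. In α9k1-naive it fell by 0.43 ± 0.15 (limma adjusted p = 0.0549), lost without GFP-naive replicate 2 (-0.41) or 4 (-0.44) or α9k1-naive replicate 6 (-0.27). In α9k1-crush it lay at 3.43, 3.48, 3.51 and 3.59, above all GFP-crush libraries. Kmt2e fell in GFP-crush, with a log2FC of -0.64 ± 0.13 (limma adjusted p = 0.00534) and no overlap of levels.

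The demethylase that moved most was Kdm6b (chr11:69398508-69413675, minus strand), which removes the repressive histone H3 methyl mark that Ezh2 lays. Its mean level was among the lowest 25% of all genes. Its levels were 2.18, 2.21, 2.27, 2.43 and 2.58 in GFP-naive. They ran from 2.96 over a median of 3.06 to 3.61 in α9k1-naive, above all other libraries. GFP-crush held 1.90, 2.03, 2.08 and 2.25, and α9k1-crush 1.62, 1.71, 2.09 and 2.19. The highest α9k1-naive level, 3.61, was that of replicate 6, the next being 3.16. The log2FC was 1.12 ± 0.14 in α9k1-naive versus GFP-naive (limma adjusted p = 5.27e-05), between 0.999 and 1.21 and called whichever library was left out. It was -1.17 ± 0.25 in α9k1-crush versus α9k1-naive (limma adjusted p = 0.0157), a call lost in a fit to those groups alone. In GFP-crush versus GFP-naive Kdm6b fell by 0.51 ± 0.14 (limma adjusted p = 0.0279), with overlapping levels. This call was lost without covariates, with quantile normalization, with the GC and length trend removed, with a variance trend, in a fit to those groups alone and without GFP-naive replicate 2 (-0.38). Kdm6b and Ezh2, which act against each other on the same mark, both rose in α9k1-naive, and in α9k1-crush the fall of Kdm6b was called and that of Ezh2 (-0.07 ± 0.37 at equal covariates) was not.

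Marker genes of other kinds moved in the same comparisons. All 12 genes of the immediate early response and of dissociation, such as Fos and Atf3, rose in α9k1-naive and all 12 fell in GFP-crush, and 9 rose in α9k1-crush versus GFP-crush. Their summed level, as log2, was 12.1 to 12.4 in GFP-naive, 13.4 to 13.9 in α9k1-naive, 10.8 to 11.2 in GFP-crush and 12.05 to 12.7 in α9k1-crush. Of 10 markers of macrophages and other immune cells in the table (14 listed), 7 rose in α9k1-naive and 7 in GFP-crush, and their summed level was 8.92 to 9.50 in GFP-naive, 10.6 to 11.1 in α9k1-naive, 11.1 to 11.8 in GFP-crush and 10.8 to 11.5 in α9k1-crush. Itgam, Cx3cr1, Cd3e and Cd79a were not analysed here. The summed level of 8 markers of endothelial cells and fibroblasts was 9.57 to 9.88 in GFP-naive, 6.87 to 8.36 in α9k1-naive, 8.44 to 8.86 in GFP-crush and 7.99 to 8.51 in α9k1-crush, and all 8 fell in α9k1-naive. Glial markers summed to 15.8 to 16.2, 16.3 to 16.8, 15.2 to 15.5 and 14.5 to 15.2 in the same order of groups, and neuronal markers to 13.5 to 13.9, 13.2 to 13.6, 14.1 to 14.5 and 14.1 to 14.5. Their part in the changes of the chromatin genes was not tested.

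Kdm5a and Kdm5b remove methyl groups from histone H3 at active promoters, and Kdm5a fell after crush and Kdm5b with α9k1. Kdm5a lay at 4.28, 4.40, 4.59, 4.77 and 4.92 in GFP-naive and at 3.43, 3.63, 3.96 and 4.21 in GFP-crush, with no overlap. Its log2FC was -0.89 ± 0.19 (limma adjusted p = 0.00897), called whichever library was left out. In α9k1-crush it lay at 4.04, 4.14, 4.24 and 4.29, within the α9k1-naive range of 3.91 to 4.39. Kdm5b lay at 3.67, 3.73, 3.83, 4.001 and 4.09 in GFP-naive and at 3.17 to 3.55 with a median of 3.32 in α9k1-naive. Its log2FC there was -0.61 ± 0.23 (limma adjusted p = 0.0678), and the call was lost without GFP-naive replicate 2 or 4, α9k1-naive replicate 4 or 6 or α9k1-crush replicate 3, at values between -0.56 and -0.50. After GFP-crush Kdm5b had a log2FC of -0.57 ± 0.23 and was not called, although its levels there, 2.70 to 3.41, did not overlap GFP-naive. Kdm4b, which acts on repressive histone H3 marks, fell in GFP-crush (-0.52 ± 0.17), lost without GFP-naive replicate 2 or 3 or GFP-crush replicate 1 or 2, at values between -0.50 and -0.40. The other 9 demethylases, Kdm1a, Kdm1b, Kdm2a, Kdm2b, Kdm3a, Kdm4c, Kdm5c, Kdm5d and Kdm8, were not called in any comparison, with log2FC between -0.44 and 0.45 in α9k1-naive and between -0.67 (Kdm5c) and 0.21 (Kdm1a) in GFP-crush. Kdm5d is the Y-linked relative of Kdm5c, and reads can be shared between them.

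Among the deacetylases, Hdac4 had the largest fall after crush. It is a class IIa enzyme, which shuttles between cytoplasm and nucleus under the control of calcium signals (chr1:91928779-92180341, minus strand). Its levels were 3.82, 3.92, 4.05, 4.07 and 4.73 in GFP-naive, and 4.01 to 4.78 with a median of 4.32 in α9k1-naive. GFP-crush held 3.02, 3.03, 3.14 and 3.53. In α9k1-crush they were 3.55, 3.58, 3.73 and 3.94, above all GFP-crush libraries and below all α9k1-naive ones. The highest GFP-naive level was that of replicate 2. The log2FC in GFP-crush versus GFP-naive was -0.90 ± 0.22 (limma adjusted p = 0.0163). It was between -1.07 and -0.62 whichever library was left out, and called each time. In α9k1-crush versus GFP-crush it was 0.41 ± 0.48 and was not called. Of the Hdac4 exon bases, 22.4% are shared with a gene on the opposite strand, Gm26720, and the libraries carried no strand information, since 49.9% to 50% of reads lay on the annotated strand.

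Hdac7, another class IIa enzyme, fell in α9k1-naive (-0.72 ± 0.28, limma adjusted p = 0.0837) and in GFP-crush (-0.85 ± 0.28, adjusted p = 0.0595), with overlapping levels in either case. The α9k1-naive call was lost when any of 8 libraries was left out, with a smallest size of -0.44 without GFP-naive replicate 4. The crush call was lost without GFP-naive replicate 2 or 4, GFP-crush replicate 1 or 2 or α9k1-crush replicate 3, at values between -0.84 and -0.68. Hdac6, the cytoplasmic enzyme that deacetylates tubulin, fell in GFP-crush (-0.47 ± 0.15), a call lost without GFP-naive replicate 3 (-0.44) or GFP-crush replicate 1 (-0.46) or 2 (-0.37). Its levels were 4.08, 4.19, 4.23, 4.40 and 4.49 in GFP-naive and 3.52, 3.60, 3.81 and 4.10 in GFP-crush. In α9k1-crush they were 4.65, 4.73, 4.86 and 4.90, above every GFP-crush library. The log2FC of 1.27 ± 0.33 in α9k1-crush versus GFP-crush had the smallest adjusted p of the 73 genes in that comparison, 0.143, which did not pass. In α9k1-naive versus GFP-naive, Hdac2, Hdac3 and Hdac9 fell (-0.42 ± 0.12, -0.36 ± 0.15 and -0.68 ± 0.24), and Hdac8 and Hdac11 rose (0.36 ± 0.15 and 0.57 ± 0.17). Hdac8, an X-linked class I enzyme, lay at 3.70, 4.16, 4.34, 4.48 and 4.50 in GFP-naive and at 4.56 to 4.75 with a median of 4.67 in α9k1-naive. These levels did not overlap, yet the call was lost when any of 10 libraries was left out, 6 of them from these groups, with a lowest value of 0.26 without α9k1-naive replicate 6. Hdac11 and Hdac2 were called in all 11 other settings. The call of Hdac8 was lost in 5 of 11, that of Hdac3 in 4 of 11 and that of Hdac9 in 4 of 10, including the fit to these groups alone for each. The call of Hdac3 was lost when any of 13 libraries was left out, at values between -0.38 and -0.31. Hdac9 was no longer called without α9k1-naive replicate 6 (-0.70) or GFP-crush replicate 3 (-0.57). Hdac1, Hdac5 and Hdac10 were not called in any comparison, with log2FC between -0.25 and 0.12 in α9k1-naive and between -0.36 and -0.29 in GFP-crush.

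Of the sirtuins, deacylases that depend on NAD+, Sirt6 fell in α9k1-naive and Sirt5 rose in GFP-crush. The median log2FC of the 7 was -0.24 in α9k1-naive, against -0.08 over all genes. Sirt6, a nuclear sirtuin of chromatin and DNA repair, lay at 4.88, 5.01, 5.03, 5.20 and 5.22 in GFP-naive and at 4.56 to 4.85 with a median of 4.74 in α9k1-naive, with no overlap. It fell by 0.48 ± 0.16 (limma adjusted p = 0.0421), a call lost without GFP-naive replicate 1 (-0.44). In GFP-crush its levels were 4.88, 5.17, 5.31 and 5.70, and in α9k1-crush 5.04, 5.24, 5.49 and 5.51. Sirt5, a mitochondrial desuccinylase, was the one gene of the 73 that rose in GFP-crush, from 6.91, 6.99, 7.04, 7.17 and 7.28 to 7.23, 7.34, 7.36 and 7.55. The groups overlapped, and the log2FC was 0.35 ± 0.10 (limma adjusted p = 0.0251), called whichever library was left out. Sirt1, Sirt2, Sirt3, Sirt4 and Sirt7 were not called in any comparison, with log2FC between -0.44 and 0.00 in α9k1-naive and between -0.49 and 0.19 in GFP-crush.

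Among the acetyltransferases, Kat2a (GCN5) fell in α9k1-naive. It lay at 4.96, 5.06, 5.09, 5.17 and 5.39 in GFP-naive and at 4.46 to 4.86 with a median of 4.77 in α9k1-naive, with no overlap. The log2FC was -0.57 ± 0.12 (limma adjusted p = 0.00281), called whichever library was left out. In GFP-crush its levels were 4.87, 4.95, 5.03 and 5.16 and in α9k1-crush 4.86, 4.99, 5.15 and 5.24. Kat6b, of the MYST family, fell in GFP-crush (-0.56 ± 0.13). Kat7, another MYST enzyme, lay at 5.64, 5.81, 5.84 and 5.92 in GFP-crush and at 6.68, 6.70, 6.79 and 6.95 in α9k1-crush. The gap between those groups was wider than the spread within them, but its log2FC at equal covariates, 0.58 ± 0.25, was not called (limma adjusted p = 0.513). Kat2b, Kat5, Kat7 and Kat8 were not called in any comparison, with log2FC between -0.08 and 0.26 in α9k1-naive and between -0.47 (Kat2b) and 0.08 in GFP-crush.

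Of the readers, Brd2 and Brd3 belong to the BET proteins, which bind acetylated histones and recruit the elongation machinery. Brd3 fell by 0.89 ± 0.19 in GFP-crush (limma adjusted p = 0.00844) and was called in all 10 other settings it could be fitted in. Its levels were 3.10, 3.30, 3.35, 3.46 and 3.77 in GFP-naive and 2.25, 2.38, 2.82 and 3.37 in GFP-crush, where replicate 3 lay inside the GFP-naive range. Brd2 fell by 0.55 ± 0.12 (limma adjusted p = 0.00866), with levels of 5.69, 5.72, 5.79, 5.81 and 5.86 in GFP-naive and of 4.95, 5.26, 5.30 and 5.46 in GFP-crush. In α9k1-crush Brd2 lay at 5.64, 5.75, 5.79 and 5.91, above every GFP-crush library and across the GFP-naive range. Brd3 lay at 2.38, 2.61, 2.72 and 2.76 in α9k1-crush, within the GFP-crush range, while its log2FC at equal covariates was 1.16 ± 0.42 and was not called. Brd7, a subunit of the PBAF form of SWI/SNF, fell in GFP-crush (-0.56 ± 0.12), and Brd8, of the NuA4 acetyltransferase complex, rose in α9k1-naive (0.32 ± 0.12), a call lost when any of 5 libraries was left out, at values between 0.27 and 0.33. Brd1 and Brd9 were not called in any comparison (-0.14 and -0.16 in α9k1-naive, -0.18 and 0.09 in GFP-crush).

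**Figure D3:**
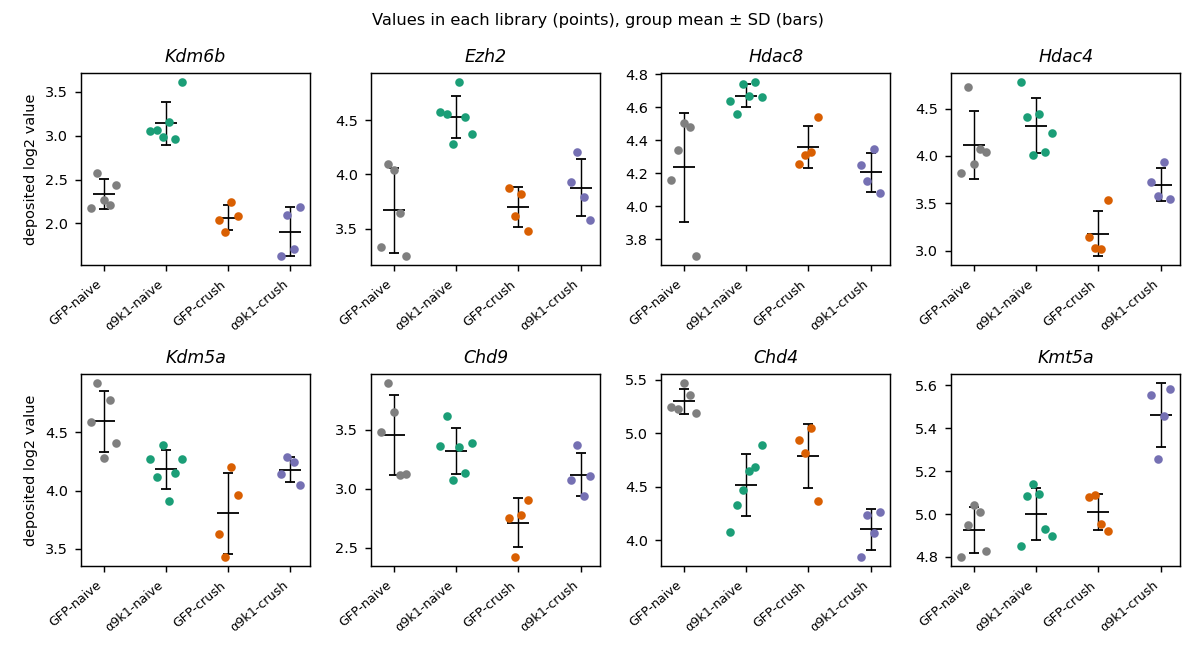
Deposited log2 values (vertical axis) of 8 genes in each library (points, by group), with group means ± SD (bars). Kdm6b, Ezh2 and Hdac8 are highest in α9k1-naive, Hdac4, Kdm5a and Chd9 lowest in GFP-crush, Chd4 highest in GFP-naive, and Kmt5a highest in α9k1-crush.

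The 9 Chd remodelers gave 4 of the 20 falls in GFP-crush, where 15.7% of all genes fell. With the GC and length trend removed, of these only the calls of Chd4 and Chd9 remained. Chd3 and Chd4 are the ATPases of the repressive NuRD complex, Chd2 and Chd9 act at transcribed genes, and Chd7 and Chd6 are relatives of Chd9. Chd9 lay at 3.12, 3.13, 3.48, 3.65 and 3.89 in GFP-naive and at 2.42, 2.75, 2.77 and 2.91 in GFP-crush, with no overlap. It fell by 0.87 ± 0.20 (limma adjusted p = 0.0118). In α9k1-crush it lay at 2.93, 3.07, 3.11 and 3.37, above all GFP-crush libraries. Chd3 lay at 2.16, 2.18, 2.55, 2.55 and 2.63 in GFP-naive and at 1.54, 1.96, 2.04 and 2.08 in GFP-crush, and fell by 0.77 ± 0.23 (limma adjusted p = 0.0406). This call was lost without GFP-naive replicate 2 (-0.78), GFP-crush replicate 2 (-0.74) or GFP-crush replicate 4 (-0.67), and α9k1-crush held 1.45, 1.76, 2.23 and 2.33.

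Chd4 was highest in GFP-naive, at 5.19, 5.23, 5.25, 5.36 and 5.47. In GFP-crush it lay at 4.37, 4.81, 4.93 and 5.05, in α9k1-naive at 4.07 to 4.89 with a median of 4.55, and in α9k1-crush at 3.84, 4.06, 4.23 and 4.27. It fell by 0.69 ± 0.17 in GFP-crush (limma adjusted p = 0.017), called whichever library was left out. It fell by 0.52 ± 0.17 in α9k1-naive (limma adjusted p = 0.0404), a call lost without GFP-naive replicate 4 (-0.49) or α9k1-naive replicate 6 (-0.62). The α9k1-crush levels lay below all GFP-crush ones, while at equal covariates that log2FC was 0.11 ± 0.37 and was not called. Chd6 lay at 3.71, 3.71, 3.76, 3.89 and 4.13 in GFP-naive and at 2.62 to 3.47 with a median of 3.31 in α9k1-naive. It fell by 0.72 ± 0.22 (limma adjusted p = 0.0293), a call lost in a fit to those groups alone (-0.67). Chd2 fell in both GFP-crush (-0.70 ± 0.23) and α9k1-naive (-0.62 ± 0.23), and had the smallest adjusted p of the 73 genes in the interaction, 0.128, at 1.61 ± 0.47. Its falls were lost without GFP-naive replicate 2 or 3 or GFP-crush replicate 2 (-0.67 to -0.49) and without GFP-naive replicate 2 or 4, α9k1-naive replicate 6 or GFP-crush replicate 3 (-0.66 to -0.38). Of its exon bases, 18.4% are shared with 1810026B05Rik on the same strand. Chd1, Chd1l, Chd3os and Chd7 were not called in any comparison, with log2FC between -0.31 and 0.32 in α9k1-naive and between -0.52 (Chd7) and 0.08 (Chd1) in GFP-crush.

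The Smarc genes encode the SWI/SNF (BAF) subunits and the related remodelers Smarca1, Smarca5, Smarcad1 and Smarcal1. Smarca1, an ISWI motor, rose in α9k1-naive by 0.89 ± 0.29 (limma adjusted p = 0.0399), lost without GFP-naive replicate 1 (0.66) and in a fit to those groups alone, and larger without α9k1-naive replicate 6 (1.43). Its levels were 1.92, 2.04, 2.15, 2.43 and 3.16 in GFP-naive and 2.64 to 3.31 with a median of 3.05 in α9k1-naive, so that GFP-naive replicate 5 lay among the α9k1-naive libraries. Smarcal1, an annealing helicase of stalled replication forks, fell in α9k1-naive (-0.71 ± 0.24, limma adjusted p = 0.045), lost without GFP-naive replicate 4 (-0.45), without covariates (-0.44) and in a fit to those groups alone (-0.62). Smarcc2, a scaffold of BAF complexes, fell in α9k1-naive (-0.37 ± 0.11, limma adjusted p = 0.0262) and in GFP-crush (-0.30 ± 0.11, adjusted p = 0.0861), with no overlap of levels in either. The first call was lost without α9k1-naive replicate 6 (-0.34), and the crush call in 7 of 11 other settings and without any of 9 libraries (-0.31 to -0.26). Smarcd2, a BAF subunit, fell in GFP-crush (-0.57 ± 0.17), lost without GFP-naive replicate 2 (-0.36). Smarca2, Smarca4, Smarca5, Smarcad1, Smarcb1, Smarcc1, Smarcd1, Smarcd3 and Smarce1 were not called in any comparison, with log2FC between -0.26 and 0.35 (Smarce1) in α9k1-naive and between -0.31 and 0.06 in GFP-crush. Smarcd3 shares 48.2% of its exon bases with Chpf2 on the opposite strand.

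Both genes of DNA methylation fell in GFP-crush, where 15.7% of all genes fell, and neither call remained with the GC and length trend removed. Dnmt3a, a de novo DNA methyltransferase, lay at 3.20, 3.63, 3.86, 3.91 and 4.27 in GFP-naive and at 2.87, 3.20, 3.36 and 3.58 in GFP-crush, and the log2FC was -0.62 ± 0.18 (limma adjusted p = 0.0311), lost without GFP-crush replicate 2 (-0.48). In α9k1-crush it lay at 3.58, 3.70, 3.94 and 4.06. The log2FC of 1.35 ± 0.38 in α9k1-crush versus GFP-crush was the largest of the 73 genes in that comparison and had an adjusted p of 0.204. Tet2, which oxidizes methylated cytosine, fell by 0.65 ± 0.20 (limma adjusted p = 0.0373). The levels overlapped and the difference of the group means was -0.19, and the call was lost without covariates, with quantile normalization, with the GC and length trend removed, in a fit to those groups alone and without GFP-crush replicate 2 (-0.60). Dnmt1, Dnmt3b, Tet1 and Tet3 were not analysed here.

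**Figure D4:**
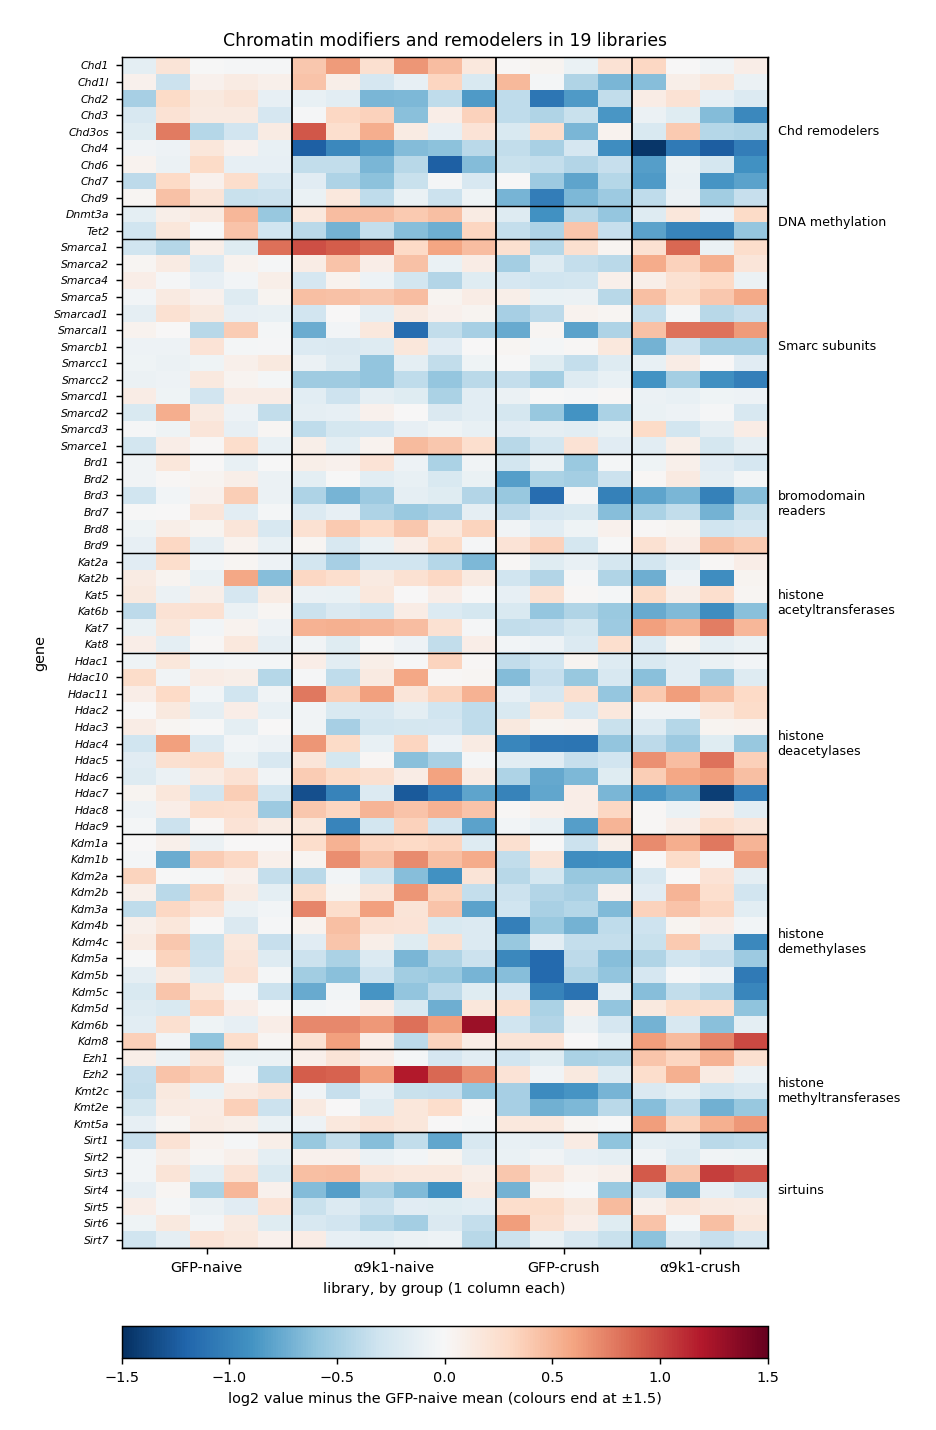
Difference of each deposited log2 value from the gene's GFP-naive mean (colour) for 72 of the 73 genes (rows, by family) in the 19 libraries (columns, by group), with colours ending at ±1.5. Blue prevails in the 4 GFP-crush columns, whose medians over the 73 genes lay between -0.33 and -0.25, and Kdm6b and Ezh2 are red in the 6 α9k1-naive columns.

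Paralogs of one complex can be compared within a library, which sets aside scaling between libraries but not the covariates. Of 10 pairs listed, 8 were tested, of which 7 are described, and 16 of their 32 differences in group means passed an exact permutation test (2-sided, Benjamini-Hochberg adjusted p under 0.1 over the 32). The log2 difference between Ezh2 and Ezh1 was -2.26, -2.18, -1.76, -1.65 and -1.32 in GFP-naive and ran from -1.32 to -0.62 in α9k1-naive. The α9k1-naive mean was higher by 0.87 (exact permutation p = 0.00216, the smallest possible, adjusted p = 0.0218). In α9k1-crush the difference was -2.24, -2.16, -1.99 and -1.62. The change from α9k1-naive was -1.04 (exact permutation adjusted p = 0.0218) with no overlap, and -0.24 at equal covariates. Ezh1 itself lay at 5.74 to 6.03 in α9k1-crush, above the 5.25 to 5.69 of α9k1-naive and the 5.03 to 5.33 of GFP-crush, and this gap was not called at equal covariates.

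The difference between Hdac4 and Hdac5, class IIa paralogs, ran from -0.97 to -0.14 in GFP-naive, from -0.64 to 0.44 in α9k1-naive, from -1.43 to -0.81 in GFP-crush and from -1.59 to -1.44 in α9k1-crush. The change after crush was -0.70 in the GFP groups (exact permutation adjusted p = 0.0571) and -1.40 in the α9k1 groups (adjusted p = 0.0218), the latter -0.89 at equal covariates. The GFP call was lost without GFP-naive replicate 1, 4 or 5 or GFP-crush replicate 1 (-0.73 to -0.65). Hdac5 lay at 4.28, 4.34, 4.46 and 4.47 in GFP-crush and at 4.99, 5.10, 5.31 and 5.44 in α9k1-crush. Between the 2 crushed groups the change was -0.30 (exact permutation p = 0.0286, the smallest possible, adjusted p = 0.0571), and -0.07 at equal covariates. It was no longer called with quantile normalization (-0.22), without GFP-crush replicate 4 (-0.17) or without any α9k1-crush library (-0.33 to -0.28).

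The difference between Smarcc1 and Smarcc2 was higher in α9k1-crush than in every other group, at 0.21, 0.37, 0.45 and 0.52, by 0.68 over GFP-crush (exact permutation adjusted p = 0.0571) and by 0.53 over α9k1-naive (adjusted p = 0.0218). At equal covariates these were 0.36 and 0.39. In α9k1-naive it was higher than in GFP-naive by 0.26 (exact permutation adjusted p = 0.0485), with overlap, and by 0.14 at equal covariates.

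Kat2b minus Kat2a was higher in α9k1-naive than in GFP-naive by 0.64 (exact permutation adjusted p = 0.026) and changed by -0.99 in α9k1-crush versus α9k1-naive (adjusted p = 0.0218). Hdac1 minus Hdac2 changed by 0.28 (exact permutation adjusted p = 0.0571) and -0.50 (adjusted p = 0.0218) in the same 2 comparisons, the former 0.54 at equal covariates. Smarca4 minus Smarca2, the alternative ATPases of SWI/SNF, changed by -0.38 in α9k1-naive versus GFP-naive (exact permutation adjusted p = 0.0218), with levels that did not overlap. Kdm5c minus Kdm5b was not called in any comparison, the largest change being -0.35. 

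**Figure D5:**
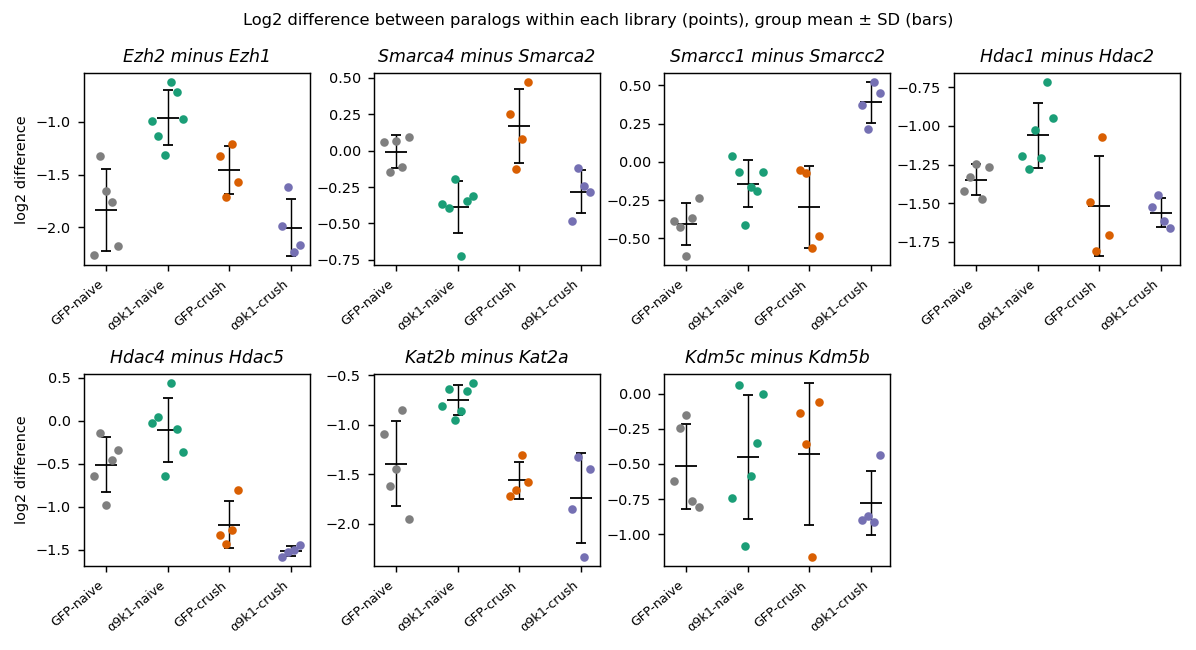
Log2 difference between the paralogs of 7 pairs within each library (points, vertical axis), by group (horizontal axis), with group means ± SD (bars). Ezh2 minus Ezh1 lies highest in α9k1-naive, Hdac4 minus Hdac5 lowest in the crushed groups, and Smarcc1 minus Smarcc2 highest in α9k1-crush.

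A list of 78 other subunits and partners of these complexes, outside the symbol rule, had 57 genes that were analysed. In GFP-crush 12 of them fell and 1 rose, with a median log2FC of -0.25 against -0.08 for all genes, of which 15.7% fell and 7.39% rose. The falls included the NuRD subunits Mta1, Mta2 and Gatad2a (-0.55 ± 0.17, -0.75 ± 0.17 and -0.55 ± 0.18), which join Chd3 and Chd4, while the NuRD genes Mta3, Mbd2, Mbd3, Rbbp4 and Rbbp7 were not called (-0.21, -0.08, -0.24, -0.19 and 0.08). They also included the corepressor Ncor1 (-0.63 ± 0.14), a platform for Hdac3, the Polycomb gene Bmi1 (-0.72 ± 0.19) and the PBAF subunit Pbrm1 (-0.60 ± 0.15). In α9k1-naive 7 of the 57 fell and 1 rose, against 17.6% and 11.4% of all genes. Rbbp4, a histone chaperone of PRC2 and NuRD, fell by 1.31 ± 0.25 (limma adjusted p = 0.00163), and the coactivator Ncoa2 rose by 0.75 ± 0.18. Eed, a core PRC2 subunit, was not called (0.16 ± 0.15), and Suz12 was not analysed here. In α9k1-crush versus α9k1-naive, 2 of the 57 rose and 1 fell, against 4.47% and 5.27% of all genes. Cbx8 (0.89 ± 0.30, limma adjusted p = 0.0995) and Ss18l1, a neuronal BAF subunit (1.17 ± 0.31), rose and Ehmt2 fell (-1.12 ± 0.32). limma called 0 of the 57 in α9k1-crush versus GFP-crush, where 0.728% of all genes rose and 0.182% fell. It also called 0 in the interaction (1.35% of all genes higher and 0.847% lower).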

How the data were processed

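RNA from GFP-sorted DRG neurons was measured by bulk RNA-seq in 19 libraries. The authors aligned reads to mm10 with STAR, quantified genes with Salmon, normalized with cqn for depth and gene length, and deposited the result as log2 values (versions not given in the sources used here). The expression table holds no gene names, and its rows were named from the deposited annotation, whose order was checked (r = 0.959 between row means and the authors' log2 means, 0.0899 with rows shifted). Picard metrics of each library were deposited by the authors as counts of reads and bases, as a fraction of reads or bases, as a percent (GC and AT dropout) and as a ratio (coverage bias). Scores of their first 3 components (45.9%, 24.1% and 11.5% of the variance of 48 metrics) served as covariates. The deposited fold changes and p-values are the authors' own comparisons and were not used. The study's batch term is not in the labels and was left out. Raw counts per gene were not analysed here, so counting error cannot be given per value.

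A linear model with group and the covariates was fitted to all 12629 genes and 19 libraries with limma 3.58.1 in R 4.3.3 (empirical Bayes, Benjamini-Hochberg over all genes, adjusted p under 0.1). Paralog differences were tested on deposited values by exact permutation, 2-sided, with scipy 1.17.1. Both were tested on simulated data. Other software was Python 3.11.15, pandas 2.3.3, numpy 2.4.6 and matplotlib 3.10.9. Groups came from the sample labels. The paper calls the libraries of a condition biological replicates, and the labels do not say which animals each came from. The genes and lists were chosen with earlier results of these data known. The genes described in full were those called with groups that did not overlap, at most the 5 largest and 5 smallest log2FC in each comparison, members of called pairs, and Ezh2 and Hdac4, and those added beside them (Hdac5, Hdac6, Hdac7, Kat7, Kmt2e, Brd3, Smarca1, Dnmt3a, Chd2) were chosen after their values were seen. Counts and tests cover all 73 genes, and the values of 1 of them are not reported here. Promoters matched by symbol for 57 of 73 genes. Gene coordinates are those of the deposited annotation. Coordinates, transcript lengths, promoters and exon overlaps are of mouse genes, whichever species the animals were. The alternatives were no covariates, the first 2 components, a pseudocount of 4 on the linear scale, removal of the lowest 25% of genes, quantile normalization, median centring, removal of GC and length trends, array weights, limma-trend, a replicate block, only the groups compared, and leaving out each library.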

Additional observations from a re-analysis of the deposited data

Results flagged for a closer look

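In 24 of the genes, each group was searched for a library far from the others of its group, relative to the group's range. Of 96 groups of values searched, 6 held one, and chance alone would flag about 1 in 20 groups. The α9k1-naive replicate 5 level of Chd6 was 2.62, with the others between 3.15 and 3.47. In GFP-crush replicate 3 Chd6 was 3.40, with the others between 3.49 and 3.51. GFP-naive replicate 2 was high for Hdac1, at 5.55 with the others between 5.31 and 5.35, and for Hdac4, at 4.73 with the others between 3.82 and 4.07. In α9k1-naive replicate 6 Kdm6b was 3.61, with the others between 2.96 and 3.16. In GFP-crush replicate 4 Smarca4 was 5.08, with the others between 4.70 and 4.75.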

How the results depend on the processing

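Without covariates, 12 of the 73 genes rose in α9k1-naive versus GFP-naive (16.5% of all genes), 25 rose and 6 fell in α9k1-crush versus GFP-crush, 14 rose and 15 fell in α9k1-crush versus α9k1-naive, and 20 were higher and 6 lower in the interaction. With the first 2 components only, these were 5 higher in α9k1-crush versus GFP-crush (5.22% of all genes), 15 higher and 14 lower in α9k1-crush versus α9k1-naive (28.7% and 27.9%), and 17 higher and 2 lower in the interaction (16.2% and 10.4%). With GC and length trends removed, 5 fell in α9k1-naive, and in GFP-crush 9 fell and 3 rose. A fit to the groups of each comparison alone gave 3 rises in α9k1-naive (9.45% of all genes) and 3 falls and 0 rises in GFP-crush (5.24% and 2.07%). It gave 0 of either between the α9k1 groups (0.507% of all genes rose and 1.09% fell). Array weights gave 1 higher in α9k1-crush versus GFP-crush (1.05% of all genes) and 3 higher in the interaction (2.8%). They gave 3 higher and 2 lower in α9k1-crush versus α9k1-naive (7.63% and 8.57% of all genes). Low values removed gave 1 higher in α9k1-crush versus GFP-crush (1.05% of all genes) and 0 lower between the α9k1 groups (6.8%). That fit lacked Kdm6b, and also Hdac7, Hdac9, Smarca1, Brd3, Chd3, Chd9 and Tet2, whose means lay in the lowest 25% of genes. Between the α9k1 groups, a pseudocount of 4 and limma-trend each gave 2 higher (4.89% and 5.07% of all genes). Median centring gave 2 higher in GFP-crush (14.5% of all genes). Apart from the construction of fits with fewer libraries or genes, the cause was not tested.

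Leaving out 1 library at a time, 7 to 14 fell in α9k1-naive (12.5% to 18.4% of all genes) and 13 to 25 in GFP-crush (8.37% to 17%). In α9k1-crush versus GFP-crush 0 to 1 rose (0.459% to 0.998% of all genes). In α9k1-crush versus α9k1-naive 1 to 2 rose (2.17% to 6.14%) and 1 to 3 fell (2.97% to 7.66%). In the interaction 0 to 2 were higher (0.538% to 2.12%). Without α9k1-naive replicate 4, 1 rose in α9k1-crush versus GFP-crush (0.491% of all genes) and 2 were higher in the interaction (0.816%). Of the single-gene values, 1075 kept direction and call and 174 kept direction but lost the call. The replicate numbers did not pair the libraries: r of the deviations of 25 same-numbered pairs ran from -0.27 to 0.15, and 3 of 19 libraries correlated best with their own number. With the replicate block, 6 fell in α9k1-naive (10.4% of all genes), and the call of Kat2a, kept whichever library was left out, was lost. In α9k1-crush versus GFP-crush 1 rose (0.42% of all genes). In α9k1-crush versus α9k1-naive 0 fell (1.39% of all genes), and the calls of Kmt5a and Kdm6b were lost.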
